A study of Saccharomyces cerevisiae with 7 samples.

Results

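The hexose transporter genes of budding yeast were followed through a meiotic time course. The genes were taken by their systematic names, and all 10 named ones (HXT1 to HXT8, HXT10 and HXT14) have a row among the 6141 open reading frames of the table. The cells were a Saccharomyces cerevisiae Clb5Delta-Clb6Delta mutant, which lacks both B-type cyclins that start S phase with the kinase Cdc28. There were 7 arrays with 2 channels, 1 each at 1, 2, 3, 4, 5, 6 and 8 h, and no replicate at any time. Each value is the log2 of the mRNA of a gene at that time over its own mRNA at 0 h, read through a mix of mRNA from the course that was the common channel. A log2 ratio of 1 is a 2-fold difference, and a value gives no absolute level, so the transporters cannot be ranked by abundance. The labels disagree on the last library, which is titled 8 h but has 6 h as its source name; it was placed at 8 h. Wild-type cells were not analysed here, the labels name neither the medium nor the strain background, and all libraries share the 0 h array.

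The Hxt proteins carry glucose and other hexoses across the plasma membrane by facilitated diffusion, and a cell chooses among them by how much glucose is outside. The membrane sensors Snf3 and Rgt2 act through the casein kinases Yck1 and Yck2 and the ubiquitin ligase subunit Grr1 to remove the corepressors Mth1 and Std1. That releases the repressor Rgt1 from HXT promoters, while Mig1 represses the high-affinity transporters when glucose is plentiful. Hxt1 and Hxt3 are known as low-affinity transporters, Hxt2, Hxt6 and Hxt7 as high-affinity ones, and Hxt5 as the transporter of slow-growing and non-growing cells. Several of the higher-numbered family members are little studied.

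Between 5625 and 5810 open reading frames had a value in each library, and 5349 had one in all 7. The number of arrays limits the precision of every value. The SD of all log2 ratios was 0.96 at 1 h and 1.65 in the last library, so a fixed fold was passed by more genes late in the course. The rows of the deleted genes were not flat. CLB6 lay between -0.53 and 1.27 and passed as a rise (slope 0.28 ± 0.06 per h, SE, limma adjusted p = 0.00526), a slope as large as some reported below for HXT genes, and CLB5 lay between -0.51 and 1.40 and passed by the curve (limma adjusted p = 0.0496), a call lost in 5 of the 7 fits that left out a library (up to 0.144). What these rows read in cells without the genes was not tested, and ratios to the same strain at 0 h do not check the deletions. Of the meiosis markers, the chromosome axis gene HOP1 reached 5.42 and the middle-phase regulator NDT80 6.18. All 8 meiosis markers changed by the curve, beside 61.0% of all genes. By the line 4 rose and IME1 fell (18.0% and 15.1%). That fall was lost without the 2, 3, 6 or 8 h library (limma adjusted p up to 0.381). Of 5 haploid markers 3 could be tested, and all 3 changed by the curve. That call was lost for GPA1 without the last library (limma adjusted p = 0.0840) and for STE18 without the 2 h library (0.0588). By the line 2 rose, the G protein genes STE4 and STE18. The rise of STE18 was lost without the 2, 3, 5, 6 or 8 h library (limma adjusted p up to 0.148). GPA1, also tested, went from 1.94 at 4 h to 0.33 in the last library. Its line did not pass (slope -0.13 ± 0.06 per h, SE, limma adjusted p = 0.140). STE3 reached 1.92 at 6 h. STE2, the receptor for alpha-factor, had values between 0.44 and 0.89 in 5 libraries.

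The members had separate courses. HXT1, HXT3, HXT4, HXT6 and HXT7 were below their 0 h level in every library that measured them, HXT2 and HXT5 were above it early and below it later, and HXT10 and HXT14 ended far above it. HXT8 stayed near its 0 h level. Tests over time were made with limma on the 5349 genes with a value in all 7 libraries. A straight line over the hours decides "rose" and "fell", and a curve (a natural spline with 2 degrees of freedom) decides "changed", both at an adjusted p of 0.05. By the curve 8 of the 9 members tested changed, where 61.0% of all genes did. By the line 2 members rose, where 18.0% of all genes did, and 2 fell, where 15.1% did; a count of 2 in 9 is close to either share. These p-values measure the scatter of successive samples of 1 course around the fitted shape, and hold no spread between cultures; samples next to each other in time are not independent.

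**Figure D1:**
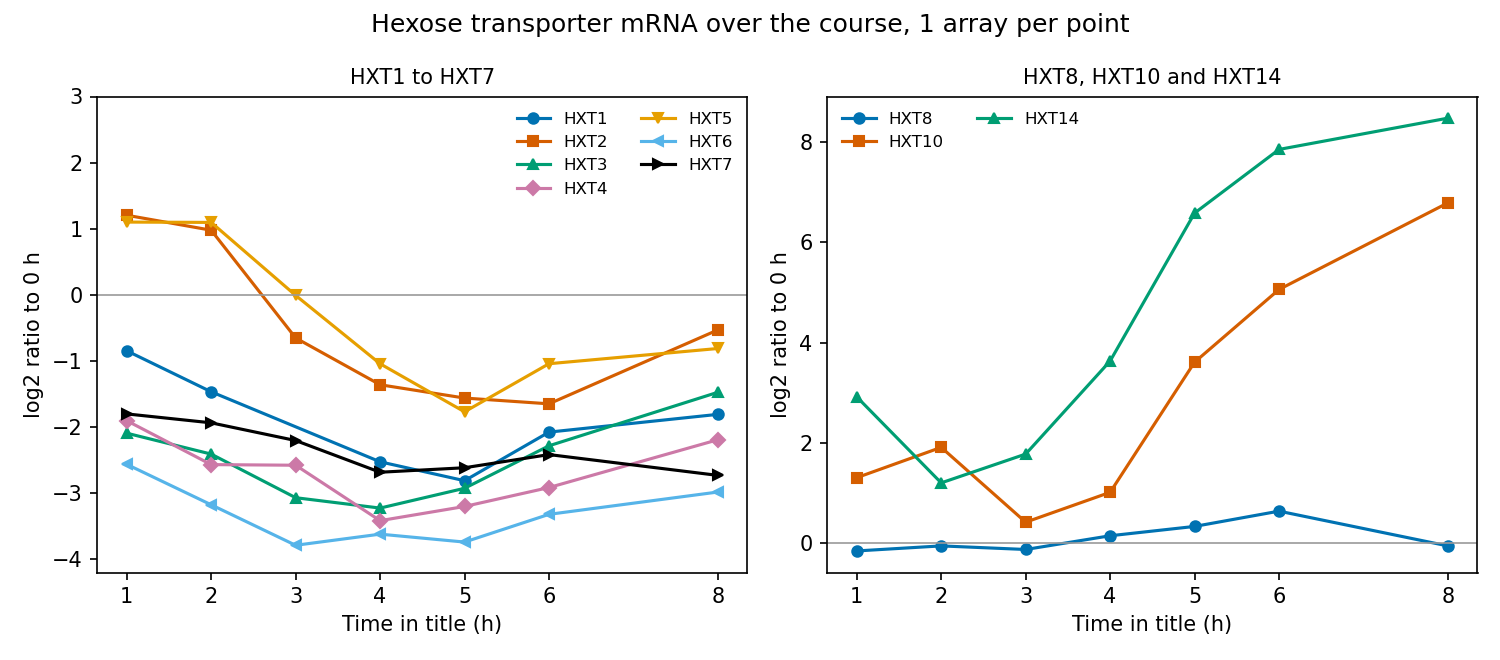
Log2 ratio to 0 h of each hexose transporter gene (vertical axis) against the time in the library's title in hours (horizontal axis), 1 array per point, with HXT1 to HXT7 on the left and HXT8, HXT10 and HXT14 on the right on another scale. HXT2 and HXT5 cross 0 around 3 h, the other genes on the left stay below it, and HXT10 climbs from its low at 3 h to 6.79 and HXT14 from its low at 2 h to 8.48; HXT1 has no value at 3 h.

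The low-affinity transporter gene HXT3 (YDR345C) had log2 ratios of -2.09, -2.41, -3.07, -3.22, -2.93, -2.28 and -1.47 at 1, 2, 3, 4, 5, 6 and 8 h. It was thus lowest at 4 h and, of all 7 libraries, highest in the last, though still more than 2-fold below 0 h there. It changed by the curve (limma adjusted p = 0.00121) and its residual SD around the curve was 0.19, while the line had a slope, in log2 units per h, of 0.09 ± 0.09 (SE, limma adjusted p = 0.432). That slope was 0.27 and passed with libraries brought to the same spread (limma adjusted p = 0.0279), and it was -0.076 without the last library (0.579). At 3 h only 0.690% of all measured genes had a lower value than HXT3, and in the last library 12.2% did.

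HXT1 (YHR094C), the other low-affinity transporter gene, stood at -0.85, -1.47, -2.52, -2.81, -2.08 and -1.81 at 1, 2, 4, 5, 6 and 8 h and had no value at 3 h. It was the least lowered of the 5 always-low genes at 1 h and sank by 1.96 log2 units up to 5 h. For lack of the 3 h value it is outside the main test. In the fit of genes with at least 5 values HXT1 changed by the curve (limma adjusted p = 0.00248), as did 59.5% of the genes in that fit, and its slope was -0.15 ± 0.09 per h (SE, limma adjusted p = 0.254).

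HXT4 (YHR092C), a transporter of fairly high affinity, had values of -1.90, -2.57, -2.58, -3.41, -3.20, -2.91 and -2.19 in order of time. It was lowest at 4 h, where 0.792% of genes lay below it, and in the last library it was 1.22 log2 units above that low. It changed by the curve (limma adjusted p = 0.00359), with no call by the line (slope -0.05 ± 0.08 per h, SE, limma adjusted p = 0.667).

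HXT6 (YDR343C) and HXT7 (YDR342C) code for nearly identical high-affinity transporters, and whether their probes tell them apart is not given in the sources used here, so each value is uncertain as to its gene. HXT6 was the lowest member in every library, with -2.56, -3.17, -3.79, -3.62, -3.74, -3.32 and -2.98 in order of time. HXT7 had -1.80, -1.94, -2.20, -2.68, -2.61, -2.42 and -2.73. HXT6 minus HXT7 lay between -1.58 at 3 h and -0.25 in the last library, so the 2 rows differed in value. Whether that difference comes from the genes or from the probes was not tested. Between 2 and 3 h HXT6 dropped by 0.61 and HXT7 by 0.27, and after 6 h HXT6 went up by 0.34 while HXT7 dropped by 0.31.

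HXT6 changed by the curve (limma adjusted p = 0.00866) and had a slope of -0.03 ± 0.07 per h (SE, limma adjusted p = 0.736). With libraries brought to the same spread that slope was 0.22 and passed (limma adjusted p = 0.0426). That curve call was not made without the 1 h library (limma adjusted p = 0.0662) or after quantile normalization (0.109). HXT7 fell along the line, with a slope of -0.13 ± 0.04 per h (SE, limma adjusted p = 0.0450), and changed by the curve (limma adjusted p = 0.0165). The fall of HXT7 was lost in 10 of 15 alternatives, among them leaving out the 1, 2, 3, 5, 6 or 8 h library (limma adjusted p between 0.0620 and 0.120). With libraries brought to the same spread its slope was 0.059, and the curve call was lost as well (limma adjusted p = 0.219), as it was without the 1 h library (0.0762) and after quantile normalization (0.451).

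HXT2 (YMR011W), a high-affinity transporter gene that cells switch on when glucose is scarce, had log2 ratios of 1.20, 0.98, -0.65, -1.36, -1.56, -1.65 and -0.53 in order of time. It was thus more than 2-fold above 0 h at 1 h, more than 2-fold below it at 4, 5 and 6 h, and between these bounds in the last library. The drop of 1.63 from 2 h to the 3 h library was larger than that of nearly all genes: 0.122% of 5743 genes had a lower difference. From 6 h to the last library HXT2 went up by 1.12, and 95.2% of genes had a lower difference.

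The curve of HXT2 passed (limma adjusted p = 0.000285, residual SD 0.36), and the line did not (slope -0.33 ± 0.13 per h, SE, limma adjusted p = 0.0765). The line passed without the last library (slope -0.65, limma adjusted p = 0.00226) and with its time set to 6 h (slope -0.50, limma adjusted p = 0.0167).

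HXT5 (YHR096C) followed the course of HXT2 closely, with 1.10, 1.10, -0.01, -1.04, -1.77, -1.04 and -0.81 in order of time. The root mean square difference between the log2 ratios of both genes over the 7 libraries was 0.38, and HXT2 was the second nearest of all genes to HXT5. HXT5 fell along the line with a slope of -0.35 ± 0.11 per h (SE, limma adjusted p = 0.0338) and changed by the curve (limma adjusted p = 0.00123). The line call was lost without the 1, 2, 3 or 6 h library (limma adjusted p between 0.0550 and 0.104) and with libraries brought to the same spread (0.0520), with slopes between -0.35 and -0.29. The curve call was made in all 14 alternatives run for it. HXT2 and HXT5 were the members that lay at least 2-fold above 0 h in some library and at least 2-fold below it in another, as 2.60% of all genes did.

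HXT10 (YFL011W) had log2 ratios of 1.31, 1.92, 0.42, 1.02, 3.61, 5.06 and 6.79 in order of time. It lay at its lowest at 3 h, after a drop of 1.49 from 2 h (0.174% of genes had a lower difference in that step). It then went up by 2.59 between 4 and 5 h, the 19th largest difference of 5701 genes, and by a further 1.45 and 1.73 in the following steps. In the last library it ranked 38th from the top of 5625 genes. HXT10 rose with a slope of 0.86 ± 0.16 per h (SE, limma adjusted p = 0.00472) and changed by the curve (limma adjusted p = 0.000711). Its residual SD was 1.26 around the line and 1.00 around the curve. Without the last library its slope was 0.70 (limma adjusted p = 0.0532), and after quantile normalization 0.44 (0.0621), while its curve passed in all 14 alternatives.

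HXT14 (YNL318C) was the highest member in all libraries but that of 2 h, with 2.92, 1.21, 1.78, 3.64, 6.58, 7.85 and 8.48 in order of time. It was at least 2-fold above 0 h throughout, as 3.93% of all genes were. Its drop of 1.71 between 1 and 2 h was followed by differences of 1.85 between 3 and 4 h and 2.95 between 4 and 5 h. The last of these ranked 5th of 5701 genes, and in the last library HXT14 ranked 8th of 5625. HXT14 rose with a slope of 1.11 ± 0.18 per h (SE, limma adjusted p = 0.00244) and changed by the curve (limma adjusted p = 0.00225). The residual SD was 1.41 around the line and 1.54 around the curve, so neither shape followed its course closely. After quantile normalization, which evens out the wider late spread, the slope was 0.56 and neither call was made (limma adjusted p = 0.0510 and 0.0644).

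Both genes had their largest step up between 4 and 5 h, but did not start alike. HXT14 had already gone up by 0.57 from 2 to 3 h and by 1.85 from 3 to 4 h. HXT10 had dropped by 1.49 and then gone up by 0.60 in those steps. HXT10 minus HXT14 was 0.71 at 2 h and lay between -2.97 and -1.36 in the other 6 libraries. In the last library the gap was -1.69, since HXT10 still went up by 1.73 after 6 h and HXT14 by 0.62.

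HXT8 (YJL214W), a little-studied member, had values between -0.15 at 1 h and 0.64 at 6 h and was never 2-fold from 0 h. Neither its slope (0.06 ± 0.05 per h, SE, limma adjusted p = 0.399) nor its curve (limma adjusted p = 0.190) passed. Without the last library, where it was back at -0.05, both passed (slope 0.15, limma adjusted p = 0.0406, and 0.0182 for the curve).

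**Figure D2:**
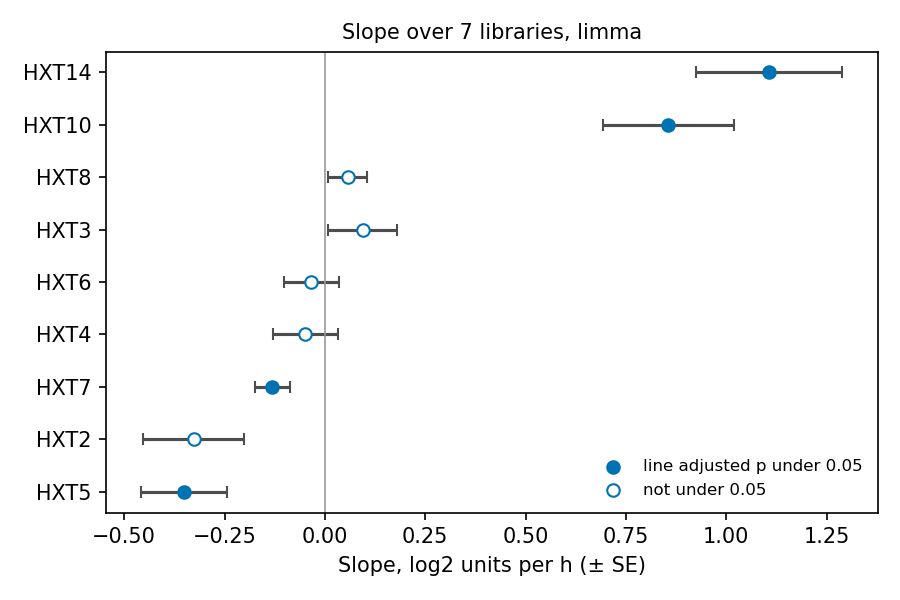
Slope of the log2 ratio over 7 libraries in log2 units per h (horizontal axis) for the 9 members with a value in all of them (rows), with bars of 1 SE from the limma fit; filled points have an adjusted p under 0.05. HXT14 at 1.11 and HXT10 at 0.86 stand apart, HXT7 and HXT5 lie below 0 with filled points, and the slopes of HXT3, HXT4 and HXT6 are near 0 although these genes went down and came back.

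Counted per library, with no test, the family's share of low genes grew to the middle of the course. At 1 h 4 of 10 members were at least 2-fold lower than at 0 h, where 12.1% of all genes were, and another 4 at least 2-fold higher, where 12.0% were. At 2 h 5 of 10 were lower (background 12.3%) and 3 higher (12.9%), and at 3 h 4 of 9 were lower (13.0%) and 1 higher (13.8%). At 4, 5 and 6 h 7 of 10 members, HXT1 to HXT7, were at least 2-fold lower, beside 15.7%, 18.2% and 19.3% of all genes, and 2 were higher, beside 17.6%, 18.8% and 19.6%. In the last library 5 members were lower (20.5%) and 2 higher (22.7%). Over the whole course HXT3, HXT4, HXT6 and HXT7 were at least 2-fold lower in all 7 libraries, 4 of the 9 with full values, where 6.17% of all genes were.

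All these counts share the 0 h array. Set against the 1 h library instead, 1 member was at least 2-fold lower at 2 h and 4 were at 3 h, the count was highest at 4 h with 6 members, and 5 followed at 5 h, 4 at 6 h and 2 in the last library. None was 2-fold higher than at 1 h at 2, 3 or 4 h, and HXT10 and HXT14 were from 5 h on. The low point of the course does not depend on 0 h: the lowest of 7 values fell at 3, 4, 5 or 6 h in 6 of 9 members, HXT2 to HXT6 and HXT10, where it did in 37.4% of all genes. HXT1, with 6 values, was lowest at 5 h. HXT3, HXT10 and HXT14 had their highest value in the last library, as 29.6% of all genes did.

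The other genes of the family were mostly highest at the end of the course. The table also holds HXT9, HXT11, HXT12, HXT13, HXT15, HXT16, HXT17 and GAL2, the galactose permease, and of these 8 genes 3 rose by the line, none fell and 7 changed by the curve, beside 18.0%, 15.1% and 61.0% of all genes. The count that rose lay between 1, without the 2 or 8 h library, and 5, without the 1 h library. At 1 h, 4 h and the end of the course their median log2 ratio was 0.36, 0.14 and 1.81. For HXT1 to HXT7 it was -1.80, -2.68 and -1.81, and for all genes 0.09, 0.04 and -0.01. HXT13, HXT15, HXT16 and HXT17, known to carry polyols such as mannitol and sorbitol, had values of 1.87, 2.00, 2.22 and 2.42 in the last library. HXT15, HXT16 and HXT17 rose, with slopes of 0.28 ± 0.05, 0.27 ± 0.07 and 0.26 ± 0.08 per h (SE; limma adjusted p = 0.00257, 0.0181 and 0.0392), and the slope of HXT13 was 0.21 ± 0.09 (0.117). The rise of HXT15 passed in each fit that left out a library, while that of HXT16 was lost without the 2 or 8 h library (limma adjusted p up to 0.208) and that of HXT17 without the 2, 3, 6 or 8 h library (up to 0.290). Without the last library the curve of HXT13 did not pass (0.0585).

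HXT9 and HXT11, which are close copies of each other, were both highest in the last library, at 1.04 and 1.74, and lay between -0.54 and 0.48 in all earlier ones. Both changed by the curve (limma adjusted p = 0.00176 and 0.000213); without the last library the call for HXT9 was lost (0.280). HXT12 lay between -1.09 and 0.07 and changed by the curve (limma adjusted p = 0.00552), and GAL2 lay between -1.59 and -0.24 and did not pass (0.302). Several of these genes have near-identical relatives in the genome, so each value is uncertain as to its gene; cross-reading between rows was not tested.

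**Figure D3:**
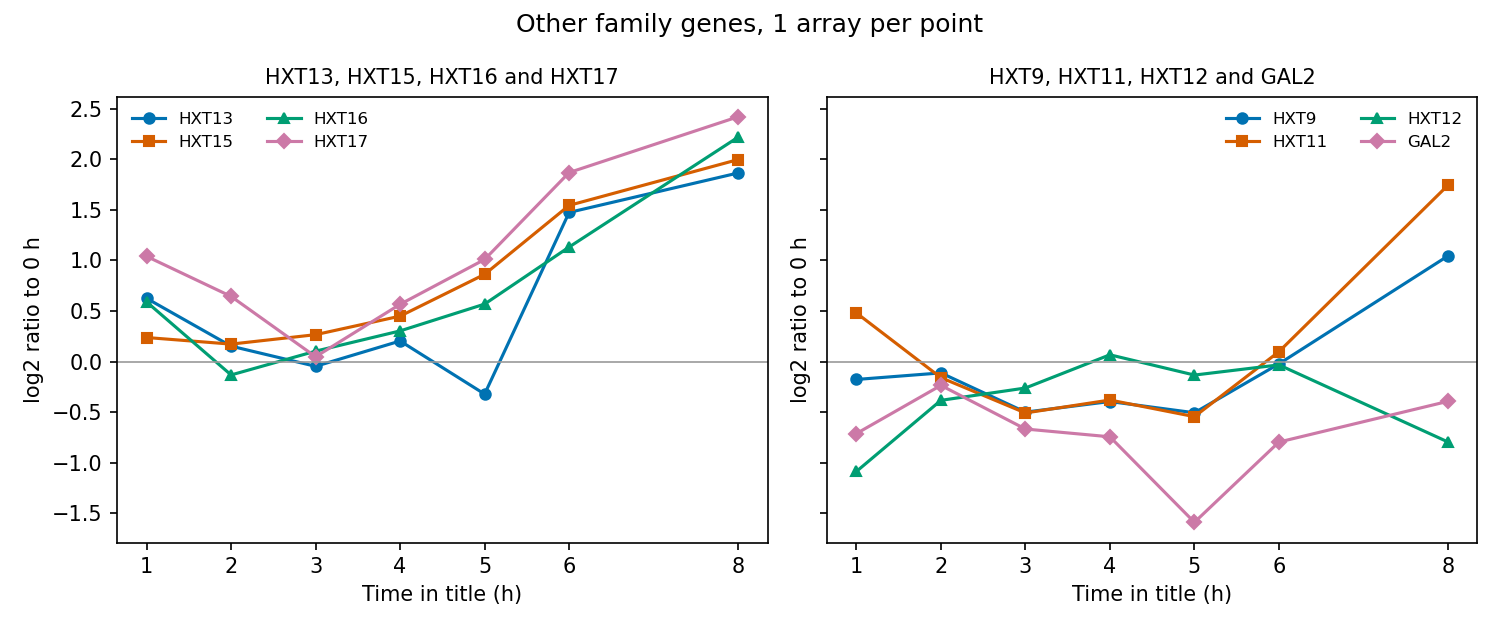
Log2 ratio to 0 h (vertical axis) against the time in the title in hours (horizontal axis) for the other HXT genes and GAL2, 1 array per point. HXT13, HXT15, HXT16 and HXT17 lie between 1.87 and 2.42 in the last library, and HXT9 and HXT11 leave the range of their earlier values there.

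HXT1 and HXT3 to HXT7 lie in clusters on the chromosomes. In the RefSeq gene table HXT7 lies beside HXT6 on chromosome IV with HXT3 just beyond the next gene, and HXT4, HXT1 and HXT5 follow each other on chromosome VIII with AHT1 between the first pair. The intervening genes did not share the low values. YDR344C, between HXT6 and HXT3, lay between 0.85 and 2.14 in 6 libraries, and AHT1 between -0.16 and 0.50. The course of YDR344C was like that of HXT3 all the same, lowest at 4 h and highest in the last library. Its Pearson correlation over the 6 libraries was 0.923 with HXT3 and 0.765 with HXT6. That of AHT1 was 0.47 with HXT1 and 0.57 with HXT4. HXT1 and HXT5 are next to each other. At 1 h HXT5 was above 0 h by 1.10 and HXT1 below it by 0.85 on the log2 scale. Their courses were alike in shape, each highest at 1 h and lowest at 5 h. The Pearson correlation over 6 libraries was 0.912 and the root mean square difference 1.62.

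The neighbours of HXT10 and HXT14 were read for the same libraries. AUA1, on one side of HXT10 on chromosome VI, was not analysed here. YFL012W, on the other side, had log2 ratios of 2.45, 1.88, 1.84, 3.97, 4.93 and 5.12 at 2, 3, 4, 5, 6 and 8 h. It went up between 4 and 5 h as HXT10 did. Over 6 libraries its root mean square difference from HXT10 was 1.00 and the Pearson correlation 0.974. Whether the probes of both rows read separate transcripts was not tested. The genes beside HXT14 on chromosome XIV kept to a far smaller range than it did. YNL320W lay between 0.77 and 1.51, with a Pearson correlation of -0.227 with HXT14 over 7 libraries. PFS2, a gene of mRNA 3' end processing, was lowest at 3 h with -0.0017 and highest at 6 h with 1.34. Its 3 latest values lay above its 4 earlier ones, as those of HXT14 did, and its Pearson correlation with HXT14 was 0.827. Neither the line nor the curve of PFS2 passed (limma adjusted p = 0.144 and 0.149).

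**Figure D4:**
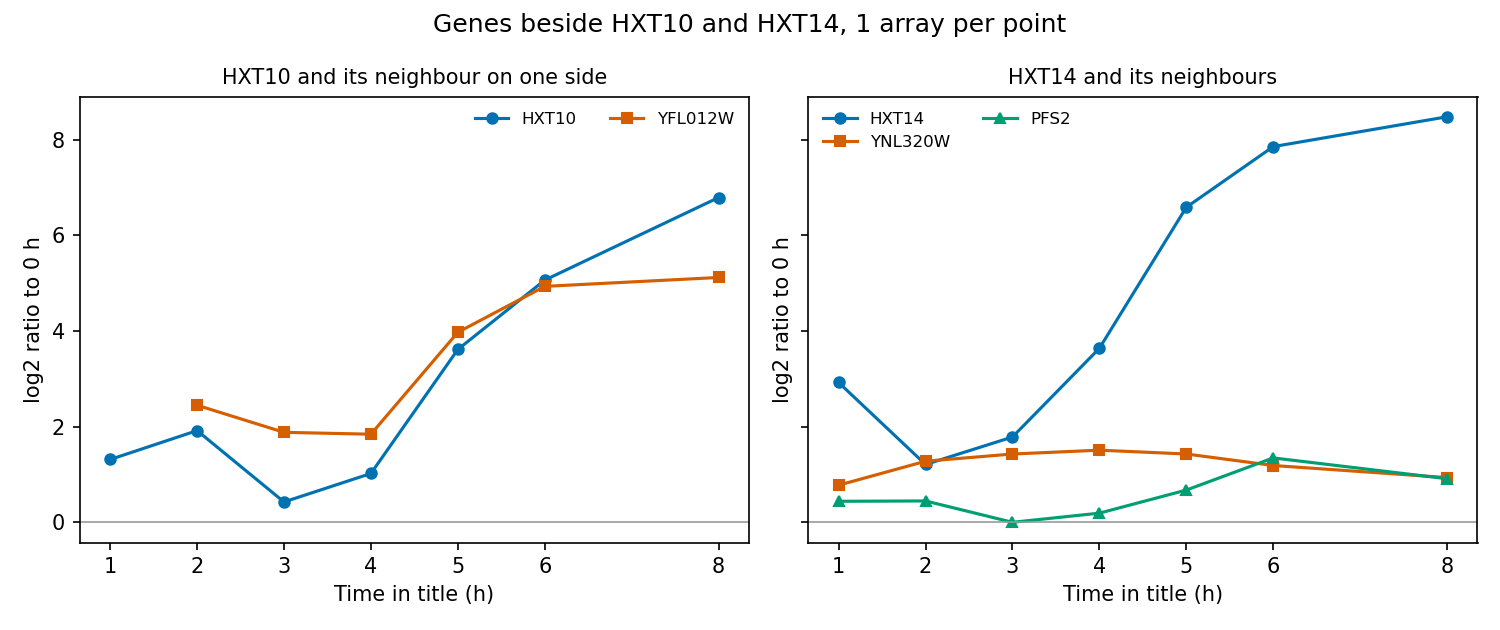
Log2 ratio to 0 h (vertical axis) against the time in the title in hours (horizontal axis) for HXT10 with the adjacent gene YFL012W (left) and HXT14 with the adjacent genes YNL320W and PFS2 (right), 1 array per point. HXT10 and YFL012W both go up after 4 h and stand furthest apart at 3 h (0.42 and 1.88) and in the last library (6.79 and 5.12), while neither neighbour of HXT14 passes 1.51.

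The genes nearest in course were looked up for the 4 members whose highest and lowest libraries differ by at least 2 log2 units and that have all 7 values, as the smallest root mean square difference of log2 ratios over the 7 libraries. Nearest to HXT14 were SMA2 (0.62), a gene of prospore membrane assembly, YDL114W (0.76) and SGA1 (0.81), the glucoamylase that breaks down glycogen in sporulation. Nearest to HXT10 were UBC11 (0.66), a ubiquitin-conjugating enzyme, SMA1 (0.80), another gene of spore membrane assembly, and GAT4 (0.90), a GATA-type zinc finger gene. Nearest to HXT2 were the haspin-type kinase gene ALK1 (0.29), the cysteine transporter gene YCT1 (0.34) and LEU4 (0.35), of leucine synthesis. Nearest to HXT5 were ARO3 (0.25), of aromatic amino acid synthesis, HXT2 (0.38) and PKP2 (0.41), a mitochondrial kinase gene.

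The genes that sense glucose and regulate the family changed in part. Of 20 listed genes 18 were tested: 6 rose, 1 fell and 12 changed by the curve, beside 18.0%, 15.1% and 61.0% of all genes. The count that rose was 3 without the 2, 3 or 6 h library, 4 without the 4 or 5 h one, and the count that changed was 8 without the 4 h library. The list median lay between -0.15 and 0.12 in all 7 libraries, close to that of all genes. The sensor genes SNF3 and RGT2 stayed between -0.45 and 0.30 and passed neither test (limma adjusted p of the curve = 0.975 and 0.350). Downstream of them YCK2, a casein kinase gene, rose to 3.61 in the last library, against 0.47 at 1 h, and GRR1 rose to 2.07, against 0.09 (slopes 0.53 ± 0.08 and 0.34 ± 0.05 per h, SE; limma adjusted p = 0.00157 and 0.00112). YCK1, the other casein kinase gene, lay between -1.52 and -0.64 and changed by the curve (limma adjusted p = 0.00833).

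The corepressor genes differed from each other. MTH1 had a low point at 5 h, with -1.08 there, 0.55 at 1 h and -0.11 in the last library (limma adjusted p of the curve = 0.00164), while STD1 fell and was lowest in the last library at -0.72 (slope -0.17 ± 0.04 per h, SE, limma adjusted p = 0.0194). RGT1, the repressor of the HXT genes, lay between -1.20 at 5 h and -0.55 at 1 h and changed by the curve (limma adjusted p = 0.0417). MIG1, the glucose repressor, had 0.77 at 1 h, a low of -1.15 at 5 h and -0.41 at the end and changed by the curve (limma adjusted p = 0.00116). GAL83, a subunit of the Snf1 kinase that counteracts Mig1, rose to 1.59 in the last library, against -0.21 at 1 h (slope 0.25 ± 0.04 per h, SE, limma adjusted p = 0.00114). The calls for YCK2, GRR1, GAL83, MTH1 and MIG1 held whichever library was left out. That for STD1 was lost without the last library (limma adjusted p = 0.177), and that for RGT1 without any 1 of the first 6 (up to 0.119). YCK1 and RGT1 were named after their values were seen.

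Of the 4 genes that phosphorylate hexoses once inside, 1 rose, 1 fell and 2 changed by the curve, beside 18.0%, 15.1% and 61.0% of all genes. HXK1 and HXK2, the hexokinase genes, were low throughout, between -3.04 and -2.29 and between -3.88 and -2.62, and passed neither test. GLK1, the glucokinase gene, fell to -1.60 in the last library, against -0.12 at 1 h (slope -0.19 ± 0.06 per h, SE, limma adjusted p = 0.0297). Its paralog EMI2 rose to 4.59, against -0.02 at 1 h (slope 0.72 ± 0.07 per h, SE, limma adjusted p = 0.000405), most of it after 3 h. The call for EMI2 held whichever library was left out, and that for GLK1 was lost without the 1, 2 or 8 h library (limma adjusted p up to 0.105).

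Of 8 genes of transporter turnover, the arrestins that mark transporters for removal and their ubiquitin ligase RSP5, none rose, 1 fell and 5 changed by the curve, shares near the 15.1% and 61.0% of all genes that fell and changed. CSR2 dipped as HXT3 did, with -1.05 at 1 h, a low of -2.38 at 4 h and -0.59 at the end (limma adjusted p of the curve = 0.0013). ALY1 fell, with a slope of -0.18 ± 0.06 per h (SE, limma adjusted p = 0.0402). ALY2 had the opposite bend, highest at 4 h with 2.24, while ROG3 and ECM21 were highest in the last library with 1.28 and 1.36; all 3 changed by the curve. The fall of ALY1 was lost without the 1, 2, 3, 4 or 6 h library (limma adjusted p up to 0.145), and the call for ROG3 without the last (0.156).

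Genes for other sugars had differing courses, and 7 listed for sucrose and galactose had 5 tested, of which 1 rose, 1 fell and 3 changed by the curve, close to the 18.0%, 15.1% and 61.0% of all genes. SUC2, the invertase gene, fell to -2.38 in the last library, against -0.51 at 1 h (slope -0.29 ± 0.08 per h, SE, limma adjusted p = 0.0289), and was lowest at 5 h. GAL10 rose to 2.44, against 0.62 at 1 h (slope 0.21 ± 0.05 per h, SE, limma adjusted p = 0.0108), and GAL80 changed by the curve (0.0318). GAL7, which has no value at 3 h and was named after its values were seen, reached 6.60 in the last library. GAL1 lay between -0.49 and -0.15 and GAL4 between -0.78 and -0.10. Both passed neither test (limma adjusted p of the curve = 0.628 and 0.165). MPH2, an alpha-glucoside permease gene, rose to 4.62, against 0.22 at 1 h (slope 0.72 ± 0.07 per h, SE, limma adjusted p = 0.000405), and MAL31, the maltose permease gene, stayed between -0.05 and 0.87 and changed by the curve (0.0187). STL1, the glycerol proton symporter gene, had values at 4 h and later only, between -3.30 and -2.09. The call for MPH2 held whichever library was left out. That for SUC2 was lost without the 1, 2 or 6 h library (limma adjusted p up to 0.114), for GAL10 without the last (0.0548), for GAL80 without the 1 or 5 h library (up to 0.339) and for MAL31 without the 4 or 8 h library (up to 0.135).

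**Figure D5:**
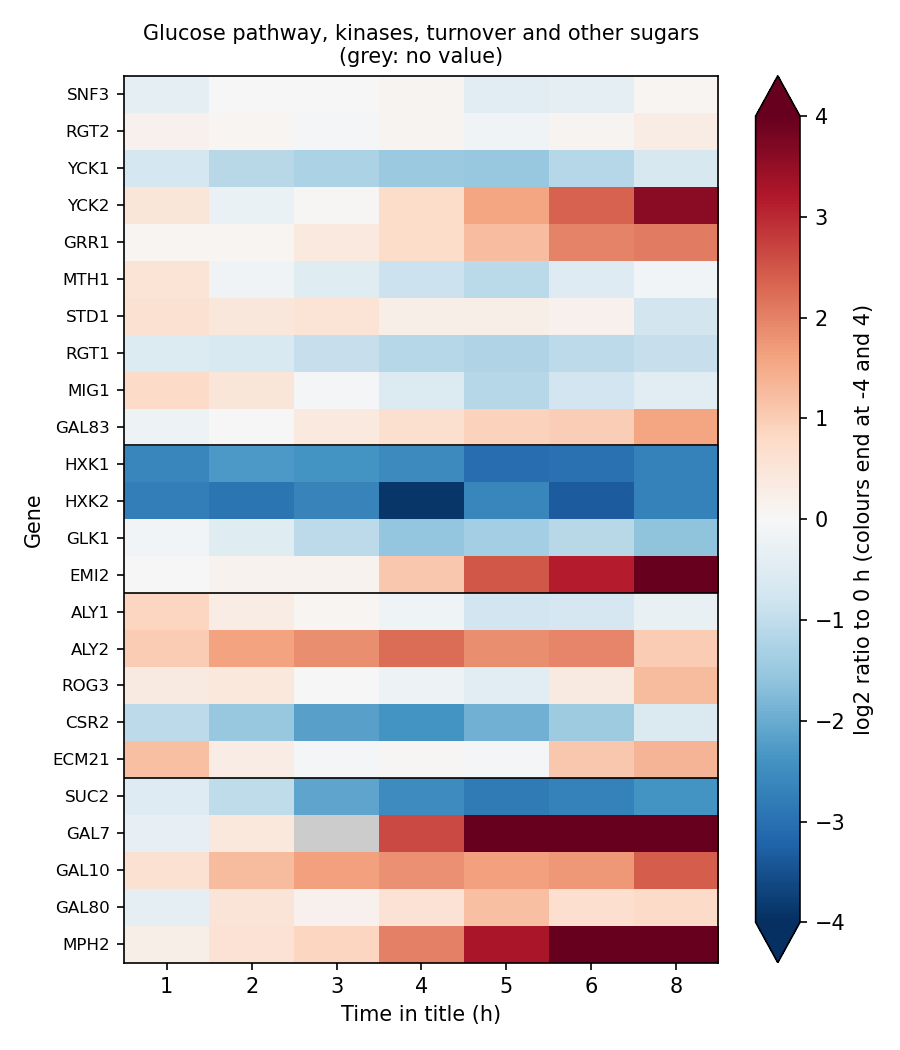
Log2 ratio to 0 h (colour, ending at -4 and 4) of genes around the transporters (rows) by the time in the title in hours (columns), 1 array per column, with a grey cell for a missing value; lines part the glucose pathway, hexose phosphorylation, transporter turnover and other sugars. YCK2, EMI2, GAL7 and MPH2 turn high from 4 or 5 h on, HXK1, HXK2 and SUC2 are low, and SNF3 and RGT2 stay pale.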

How the data were processed

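RNA came from filtered cells, and poly(A) RNA was turned into Cy5-labelled cDNA, with a Cy3 mix of the time points as the other channel, per the labels' protocols. Per the series' design text, the authors took each ratio of sample to mix relative to the ratio at 0 h, and the deposited values are log2 of the result, per the labels. How the arrays were scanned, corrected for background, filtered and normalized is not given in the sources used here.

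Libraries were grouped by title, and the replicate unit is a sample of a single course. Slopes and splines (2 degrees of freedom) used lmFit and eBayes of limma 3.58.1 under R 4.3.3 on the 5349 genes with all 7 values, with Benjamini-Hochberg adjustment over all of them, a threshold of 0.05 and 5 residual degrees of freedom for the line. Tests on simulated data for 5349 genes recovered 35.8% of 67 slopes of 0.2 per h. They recovered 86.6% of 67 slopes of 0.4 and 98.5% of 66 of 0.8, with 4 false calls among 151. The share of false calls in the measured course, whose successive samples are not independent, was not tested. Gene names and neighbours come from the RefSeq gene table of assembly R64; no coordinates or sequences were used here. Tables and plots used Python 3.11.15, pandas 2.3.3, numpy 2.4.6 and matplotlib 3.10.9.

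The members, lists, tests and alternatives were chosen with earlier results of these data known. The rule for genes to name took all members, the other HXT genes with GAL2, the sensors, the hexose kinases, the markers and the deleted genes. It also took at most 6 genes of each further list past a test and widest in range. The 3 nearest genes of wide-ranging members and the genes next to each member completed it. YCK1, RGT1, GAL1, GAL4, GAL7 and STL1 fall outside that rule. The markers IME2, SPO13, SPS1, SPS2 and SMK1 fall under it but are not described above. Neither are the neighbours ANY1, SVF1, MSR1, PAL2, YDR341C, IMA5 and YJL213W. Some of these neighbours passed a test, among them YJL213W beside HXT8 (limma adjusted p of the curve = 0.000442) and ANY1 beside HXT2 (0.00318 for the line). Alternatives were centring, equal spread, quantile normalization, the last library taken as 6 h, genes with at least 5 values, ranks of time, robust eBayes, late (5, 6 and 8 h) against early (1, 2 and 3 h) libraries, the 1 h library as baseline, and leaving out each library.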

Additional observations from a re-analysis of the deposited data

Results flagged for a closer look

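HXT2 and HXT5 lay on opposite sides of 0 h at different times, at least 2-fold above it at 1 h and at least 2-fold below it at 4, 5 and 6 h. The highest minus the lowest library was 2.85 log2 units for HXT2 and 2.87 for HXT5. With 1 library per time, the difference between any pair of times was not tested; the curve over time passed for both.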

How the results depend on the processing

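Over 15 alternatives, 110 of 135 slope results of the 9 members kept their side of the threshold, 6 of them with a change of sign below it, while 17 lost a call, 6 gained 1 and 2 turned round. When the spread of the libraries was made equal the slope was 0.22 per h for HXT6, 0.059 for HXT7, 0.15 for HXK1 and 0.23 for HXK2, and after quantile normalization it was -0.37 for IME2, each against the sign of its main slope. Of 126 curve results 119 stayed, 6 were lost and 1 was gained.

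Members that rose by limma numbered 4 with equal spread (HXT3, HXT6, HXT10 and HXT14) and 0 after quantile normalization, where 3 passed at an unadjusted p. Without the last library the 2 that rose were HXT8 and HXT14. Members that fell numbered 1 with centring, 0 with equal spread (2 at an unadjusted p), 1 after quantile normalization, and 0 to 2 when each library was left out. Members that changed by the curve numbered 5 after quantile normalization. For late against early libraries, 623 genes rose and 439 fell; leaving out each library gave between 512 and 964 falling genes, the lowest without the 2 h library. Against the 1 h library, members at least 2-fold higher numbered 0 at 2, 3 and 4 h, and those at least 2-fold lower 1 at 2 h, 4 at 6 h and 2 in the last library. At 4 h, 1 member was at least 2-fold higher with centring and 1 with equal spread. For most of these moves the cause was not tested; equal spread and quantile normalization shrink late values by construction. No paired analysis was possible because each time point has 1 library. No spot intensities were used here, so signal over background is unknown.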
